A study of Mus musculus with 11 samples.

Results

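Txnip, Tbc1d10c, Ypel3 and Btg2 mRNA stood high on the memory-derived unstimulated arrays and low on all 8 other arrays. Foxo1, Foxo3 and Klf2 stayed within a narrow range on all 11, Klf2 at low levels where a change can be missed. These 7 genes, with Btg1, Tob1 and Pik3ip1, make up a list of 10 genes tied to rest in lymphocytes, out of 18193 genes measured on the array. They were chosen by name with their levels and differences in the comparisons below already known from earlier results of these data, so those values are a description and support nothing. Every probe set with their symbol alone was taken, 21 of 34945 such probe sets. Levels are given on a log2 scale and differences as log2 differences. All 10 genes passed the filter on low values.

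The cells were CD8+ T cells from Pmel-1 transgenic mice, whose T cell receptor recognises the melanoma antigen gp100. Cells sorted as naive (CD44-) or central memory (CD44+) were activated through CD3 and CD28, restimulated with peptide-pulsed allogeneic feeder cells and grown for 2 weeks in 10 cetus units of IL-2, so that every group consisted of cultured effector cells. At the end, cells received CD3/CD28 stimulation for 4 h or none. The 4 groups were naive-derived stimulated (3 arrays), naive-derived unstimulated (2 arrays), memory-derived stimulated (3 arrays) and memory-derived unstimulated (3 arrays), and the replicates came from 3 independent experiments. The age of the mice, and whether animals were pooled, are not given in the sources used here.

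A resting lymphocyte is held in a small, non-dividing state by an active programme. FOXO factors sit in the nucleus while PI3K and AKT signalling is low and switch on genes of homing and survival, among them Klf2. Antigen receptor and CD28 signals activate AKT, which phosphorylates FOXO proteins and moves them out of the nucleus. Other brakes act beside this axis, such as inhibitors of PI3K, Ras and calcineurin, proteins that hasten mRNA decay, and TXNIP, which limits glucose uptake.

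Tnf split the 11 arrays by their stimulation label, and Il2 did so within each origin but not across origins. Il2, which activated T cells make, averaged 13.9 ± 1.06 on naive-derived stimulated, 11.6 ± 0.805 on naive-derived unstimulated, 10.8 ± 0.694 on memory-derived stimulated and 3.74 ± 1.33 on memory-derived unstimulated arrays (SD, n = 3, 2, 3 and 3). Both arrays labelled naive-derived unstimulated (11.04 and 12.18) thus carried Il2 at the height of memory-derived stimulated cells. They still lay below all naive-derived stimulated arrays (12.65 to 14.60). Tnf, another cytokine of activated T cells, averaged 9.93 ± 0.534, 8.49 ± 0.799, 9.86 ± 0.356 and 5.65 ± 0.417 in the same order. In Tnf both naive-derived unstimulated arrays lay below all 6 stimulated arrays and above all 3 memory-derived unstimulated ones. The response of naive-derived cells, the comparison of unstimulated cells and the interaction all rest on these 2 arrays, and whether their label holds was not tested. The 3' minus 5' actin difference, a sign of RNA length, followed the groups (0.581 to 0.782, 0.462 to 0.478, 0.431 to 0.520 and 0.263 to 0.351 on the log10 scale, in that order). All 8 CD8 T cell markers lay above the filter level of 1.54 on every array. The summed level of 8 myeloid markers was 15.2 to 16.4, 16.9 to 17.0, 17.4 to 19.2 and 18.2 to 19.9 in the 4 groups. These markers did not move together. Itgax, Cd14 and Fcgr1 had 5.99 to 6.65, 2.56 to 2.90 and 1.76 to 2.06 on memory-derived unstimulated arrays. On naive-derived stimulated arrays they had 4.13 to 4.81, 1.17 to 1.96 and 0.839 to 0.964. Csf1r, Lyz2, Itgam, Adgre1 and S100a8 overlapped between those groups. The sums of the 4 B cell markers on the array were 5.59 to 6.15, 6.52 to 6.68, 5.25 to 5.43 and 5.19 to 6.17, and those of the 2 NK cell markers 1.14 to 2.11, 1.40 to 1.53, 2.73 to 3.30 and 2.04 to 3.86. The part of RNA quality and of other cells in the results was not tested. In bulk RNA of this kind, fewer cells of a type and less RNA per cell cannot be told apart.

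The sequence around the start site differed in the motifs it held among the genes that had a promoter window. Promoter windows from RefSeq (build GRCm38.p6, 250 bases before to 50 after the start, 300 bases in all) were held for 9 of the 10 genes. Tbc1d10c had no entry. TGTTTAC, a motif that FOXO factors bind, was searched on both strands and found in 3 of the 9 windows, those of Txnip, Btg1 and Ypel3, and in 3.65% of 32851 windows of the same length. The 3 matching stretches are shown because theirs are the windows of the 10 genes that hold this motif, with the match in capitals. GTAAACA in Txnip and Ypel3 is the motif read on the other strand. The other capitals in Txnip are a pair of CACGAG words separated by 5 bases, the form of the carbohydrate response element through which the glucose-sensing factors MondoA and MLX are known to act on this gene.

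Txnip (chr3:96557707-96557956, plus strand, bases -250 to -1): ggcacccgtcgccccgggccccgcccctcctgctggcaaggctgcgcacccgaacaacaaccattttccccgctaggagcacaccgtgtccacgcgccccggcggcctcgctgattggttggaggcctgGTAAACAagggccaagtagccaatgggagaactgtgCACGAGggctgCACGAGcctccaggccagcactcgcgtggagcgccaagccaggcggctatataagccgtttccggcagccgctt

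Btg1 (chr10:96616751-96617000, plus strand, bases -250 to -1): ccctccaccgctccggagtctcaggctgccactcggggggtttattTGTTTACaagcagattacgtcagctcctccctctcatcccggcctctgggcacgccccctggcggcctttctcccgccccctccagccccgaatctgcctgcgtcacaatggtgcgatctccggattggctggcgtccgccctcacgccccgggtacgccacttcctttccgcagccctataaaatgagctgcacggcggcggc

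Ypel3 (chr7:126776977-126777006, plus strand, bases 15 to 44 after the start): ctggtctcggtGTAAACAagtcgaggcggc

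The Txnip match lies at -121 to -115, on the minus strand, and the Btg1 match at -204 to -198, on the plus strand. The Ypel3 match, on the minus strand, lies after the start site at 26 to 32. The pair of CACGAG words, a motif chosen after the Txnip sequence had been read, was found in 1 of 32851 windows, that of Txnip, at -85 to -69. The E-box CACGTG was found in 0 of 9 windows, against 7.15% of all windows. The CACCC box (CACCC on either strand), which Krüppel-like factors bind, was found in 5 of 9 windows, against 57.5% of all. These are matches of letters and no test of binding. Txnip and Ypel3 were among the genes high on the memory-derived unstimulated arrays and Btg1 was not, so windows with the FOXO motif stood on both sides of that division. Btg2, which was high there, had no match in its window.

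The transcription factors came first by role. Foxo1, the FOXO factor best known for holding naive T cells at rest, had levels of 4.85, 4.62 and 4.72 on naive-derived stimulated arrays, against 4.87 and 4.71 on naive-derived unstimulated arrays. On memory-derived stimulated arrays it had 4.68, 4.64 and 4.63, against 4.49, 4.46 and 5.19 on memory-derived unstimulated arrays. The groups overlapped throughout, and the lowest and the highest array of all 11 both belonged to the memory-derived unstimulated group. The stimulated minus unstimulated difference was -0.06 (SE 0.205) in naive-derived cells and -0.06 (SE 0.183) in memory-derived cells, and the 95% interval of the second ran from -0.47 to 0.34. Differences within those bounds thus remained compatible with the 3 arrays a group.

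Foxo3, its paralogue, had levels of 3.25, 3.60 and 2.99 on naive-derived stimulated arrays, against 2.79 and 2.96 on naive-derived unstimulated arrays. The naive-derived stimulated arrays all lay above the unstimulated ones, by 0.41 (SE 0.226) on average. On memory-derived stimulated arrays they were 2.93, 3.11 and 2.88, against 2.76, 2.75 and 3.40 on memory-derived unstimulated arrays. Here the groups overlapped and the difference was 0.00 (SE 0.202), with a 95% interval from -0.45 to 0.45. All neighbours in the order of the 4 group means overlapped for Foxo1, and likewise for Foxo3.

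Klf2, a Krüppel-like factor that FOXO1 is known to switch on and that promotes exit from lymphoid tissue, lay low. It had 2.63, 2.24 and 2.51 on naive-derived stimulated arrays, against 2.64 and 2.35 on naive-derived unstimulated arrays. Stimulated memory-derived cells had 2.36, 2.58 and 2.48, against 2.28, 2.42 and 2.49 on memory-derived unstimulated arrays. All 11 values lay within 0.40 of each other, the smallest range of the 10 genes, and the SD over the 11 arrays (0.135) was below the pooled SD within groups (0.154). In memory-derived cells the difference was 0.08 (SE 0.141), with a 95% interval from -0.23 to 0.39. None of the 3 factors was called in any of the 5 comparisons.

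**Figure D1:**
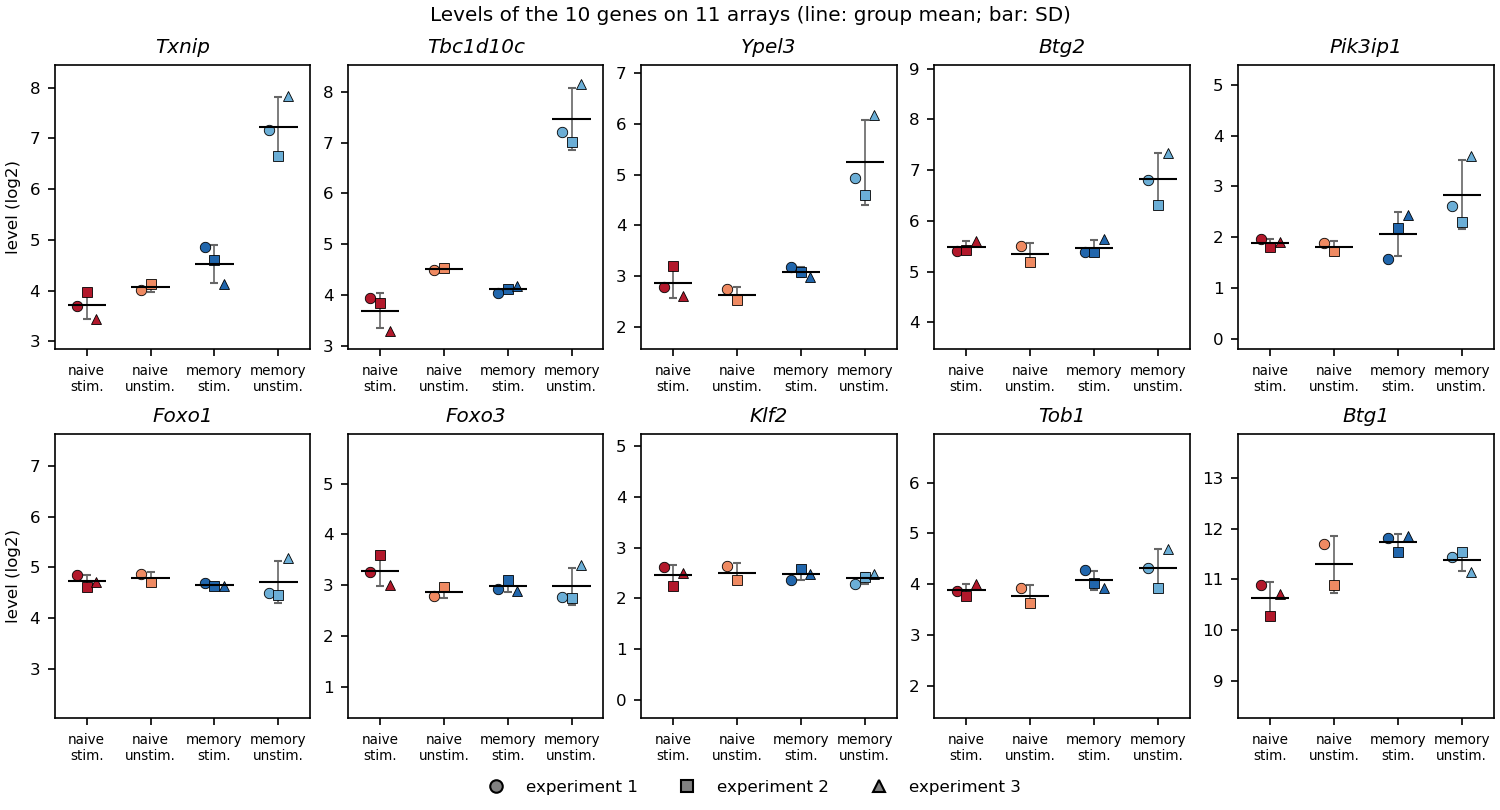
Log2 level of each of the 10 genes on every array (points), by group, with the group means (horizontal lines) and SDs (vertical bars). Txnip, Tbc1d10c, Ypel3 and Btg2 have all 3 memory-derived unstimulated arrays above the other 8, whereas the groups overlap for Foxo1, Klf2 and Tob1 within each origin.

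Txnip, an arrestin-like protein that binds thioredoxin and restrains glucose uptake, had levels of 3.70, 3.98 and 3.44 on naive-derived stimulated arrays, against 4.00 and 4.13 on naive-derived unstimulated arrays. On memory-derived stimulated arrays it had 4.85, 4.61 and 4.12, against 7.17, 6.65 and 7.84 on memory-derived unstimulated arrays. The memory-derived unstimulated arrays stood alone, with a gap of over 1 log2 unit to the nearest other array. In memory-derived cells the difference was -2.69 (SE 0.284), 6.46-fold lower with stimulation. Among unstimulated cells, naive-derived arrays were 8.91-fold lower than memory-derived ones (-3.15, SE 0.317). Naive-derived cells differed by -0.36 (SE 0.317) with stimulation, with a 95% interval from -1.06 to 0.34.

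A second Txnip probe set had group means of 3.21, 3.62, 4.06 and 6.02 for naive-derived stimulated, naive-derived unstimulated, memory-derived stimulated and memory-derived unstimulated cells. Its difference in memory-derived cells was -1.96 (SE 0.292), and over the 11 arrays it correlated with the first at r = 0.993. Both probe sets had the same order of groups. The interaction described below was 1.55 (SE 0.439) on the second probe set and did not pass over all probe sets (limma adjusted p = 0.0858).

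Pik3ip1, a membrane protein that inhibits the catalytic subunit of PI3K, lay close to the filter level of 1.54. Its levels were 1.97, 1.81 and 1.90 on naive-derived stimulated arrays, against 1.89 and 1.73 on naive-derived unstimulated arrays. On arrays of memory-derived stimulated cells it had 1.58, 2.18 and 2.43, against 2.61, 2.30 and 3.60 on memory-derived unstimulated arrays. One array, replicate 3 of the memory-derived unstimulated group, was far above the rest, and the memory-derived groups overlapped. The difference was -0.78 (SE 0.303) with stimulation in memory-derived cells, which did not pass the threshold, and -1.03 (SE 0.339) between unstimulated naive-derived and memory-derived cells, which did. Without replicate 3 of the memory-derived unstimulated group these were -0.39 (SE 0.226) and -0.65 (SE 0.247), and neither passed. With the experiment as a block the first passed (-0.78, limma adjusted p = 0.0459) and the second did not (-0.84, limma adjusted p = 0.072).

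Tbc1d10c, also called carabin, inhibits calcineurin and Ras and so dampens T cell receptor signals. It had 3.94, 3.84 and 3.29 on naive-derived stimulated arrays, against 4.49 and 4.53 on naive-derived unstimulated arrays. In the memory-derived stimulated group it had 4.03, 4.12 and 4.17, against 7.22, 7.01 and 8.16 on memory-derived unstimulated arrays. This was the widest range of the 10 genes, 4.88 over the 11 arrays. The groups ran in the order memory-derived unstimulated, naive-derived unstimulated, memory-derived stimulated and naive-derived stimulated, with no overlap between any neighbours.

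Stimulated memory-derived cells were 10.2-fold lower than unstimulated ones in Tbc1d10c (-3.36, SE 0.268). Naive-derived cells lay lower with stimulation by 1.76-fold (-0.82, SE 0.299), with a 95% interval from -1.48 to -0.16, and this did not pass the threshold over all genes. Between unstimulated cells of naive and memory origin the difference was -2.96 (SE 0.299).

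**Figure D2:**
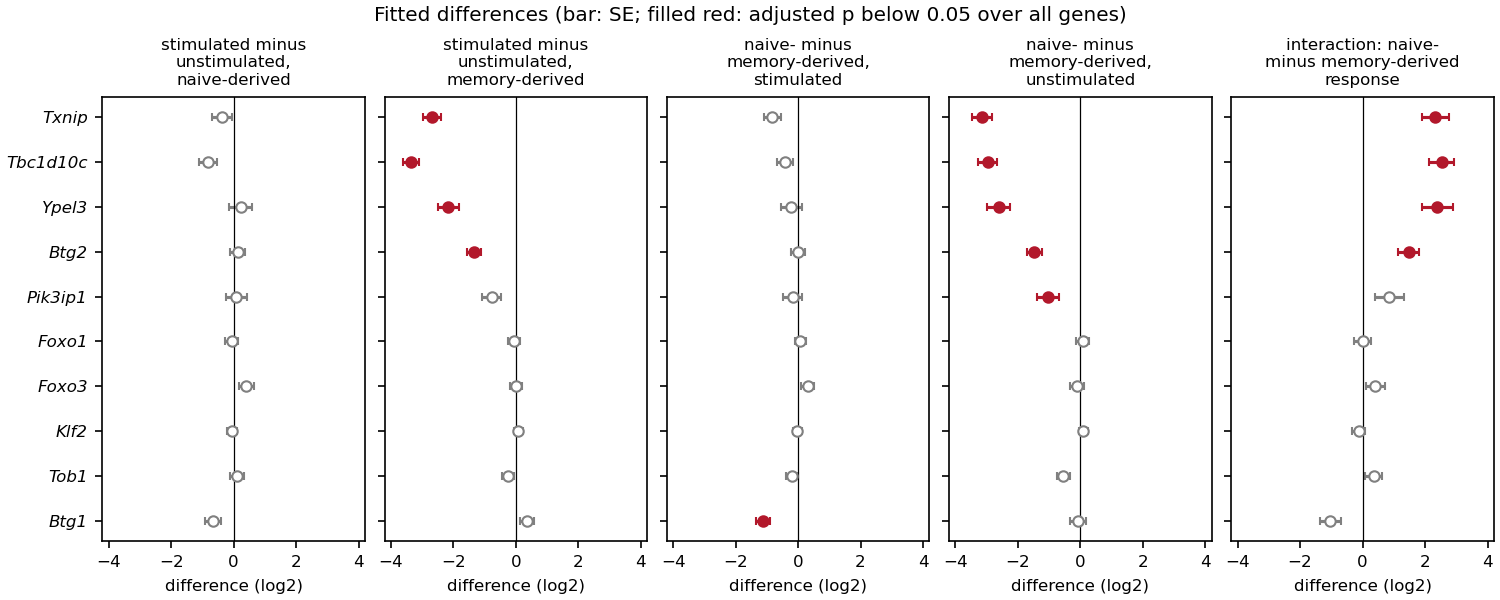
Log2 differences of the 10 genes in the 4 pairwise comparisons and the interaction, with bars of 1 SE; filled points passed the threshold over all genes. Txnip, Tbc1d10c, Ypel3 and Btg2 lie far below 0 with stimulation in memory-derived cells and in the comparison of unstimulated naive-derived with memory-derived cells, from -1.35 to -3.36, and none of the points of Foxo1, Foxo3 and Klf2 is filled.

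The BTG and TOB proteins bind the CCR4-NOT deadenylase complex, which shortens poly(A) tails, and they restrain proliferation. Btg2 had 5.41, 5.43 and 5.61 on naive-derived stimulated arrays, against 5.50 and 5.20 on naive-derived unstimulated arrays. In memory-derived stimulated cells the levels were 5.39, 5.39 and 5.64, against 6.80, 6.32 and 7.34 on memory-derived unstimulated arrays. Only the memory-derived unstimulated arrays were high, and the other 3 groups overlapped. The difference with stimulation in memory-derived cells was -1.35 (SE 0.221), 2.54-fold lower, against 0.13 (SE 0.247) in naive-derived cells. A second Btg2 probe set had group means of 4.04, 3.83, 4.43 and 5.36 in the order of groups used for Txnip, with a difference of -0.94 (SE 0.269) in memory-derived cells.

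Btg1, the close relative of Btg2, lay high on every array. It had 10.89, 10.28 and 10.71 on naive-derived stimulated arrays, against 11.70 and 10.89 on naive-derived unstimulated arrays. Its levels on memory-derived stimulated arrays were 11.81, 11.55 and 11.85, against 11.45, 11.55 and 11.14 on memory-derived unstimulated arrays. Its order of groups was not that of Btg2: memory-derived stimulated cells had the highest mean and naive-derived stimulated cells the lowest, with overlap between all neighbours in the order.

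Among stimulated cells, naive-derived arrays all lay below memory-derived ones in Btg1 (-1.11, SE 0.225, 2.16-fold lower). That difference was the only one of the 10 genes to pass the threshold in the comparison of stimulated cells. It rested on the probe set chosen: a second Btg1 probe set, with r = 0.87 to the first, gave -0.55 (SE 0.162) and did not pass, and another, with r = -0.20, gave 0.26 (SE 0.212). With the mean of all its probe sets the difference was -0.47 and did not pass. It also missed the threshold without replicate 2 (-0.94) or 3 (-1.15) of the naive-derived stimulated group, and without replicate 1 (-1.07) or 3 (-1.05) of the memory-derived stimulated group.

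Tob1, a family member that restrains T cell proliferation, had 3.87, 3.77 and 4.00 on naive-derived stimulated arrays, against 3.92 and 3.62 on naive-derived unstimulated arrays. The memory-derived stimulated arrays had 4.29, 4.02 and 3.92, against 4.33, 3.93 and 4.69 on memory-derived unstimulated arrays. The groups overlapped within each origin, and the difference was 0.11 (SE 0.213) in naive-derived and -0.24 (SE 0.19) in memory-derived cells. Unstimulated naive-derived arrays both lay below the memory-derived ones (-0.55, SE 0.213), which did not pass. It passed when arrays were weighted by their spread (limma adjusted p = 0.0359) and without replicate 2 of the memory-derived unstimulated group (-0.74, limma adjusted p = 0.0167). A second Tob1 probe set lay below the filter level on 7 of 11 arrays and had the opposite sign in that comparison (0.43, SE 0.283), which did not pass either.

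Ypel3, a yippee-like protein whose expression halts growth in human cells, had 2.78, 3.20 and 2.61 on naive-derived stimulated arrays, against 2.74 and 2.53 on naive-derived unstimulated arrays. For memory-derived stimulated cells the values were 3.19, 3.08 and 2.98, against 4.94, 4.61 and 6.18 on memory-derived unstimulated arrays. Once more the memory-derived unstimulated arrays stood above all others. The differences were -2.16 (SE 0.33), 4.48-fold lower with stimulation in memory-derived cells, and 0.23 (SE 0.369) in naive-derived cells. Between unstimulated cells, naive-derived arrays were 6.10-fold lower than memory-derived ones (-2.61, SE 0.369).

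Counted over the list, 4 of 10 genes were called lower with stimulation in memory-derived cells (Txnip, Tbc1d10c, Ypel3 and Btg2) and 0 higher, where 17.3% of 14795 genes tested were called lower and 14.3% higher (limma, Benjamini-Hochberg adjusted p below 0.05 over all genes tested). The median difference of the 10 genes was -0.51, beside 0.00 over all genes. In the comparison of unstimulated naive-derived with memory-derived cells the same 4 genes and Pik3ip1 were called lower, beside 14.9% of all genes, with a median of -0.79 beside -0.01. Both comparisons share the memory-derived unstimulated arrays. Counted over the 19 probe sets of the 10 genes that were tested, 6 were lower with stimulation in memory-derived cells and 0 passed in naive-derived cells. In naive-derived cells 1 was lower among stimulated and 8 among unstimulated cells, and 0 were higher in any of these comparisons. Of all probe sets, 28.1%, 0.0111%, 2.92% and 22.5% were called in the same order. These shares count both directions, unlike the counts of lower probe sets. For the interaction 3 were higher and 0 lower, beside 1.68% of all probe sets called in either direction. They were 1 each of Txnip, Tbc1d10c and Ypel3, while the main Btg2 probe set narrowly missed the threshold there (limma adjusted p = 0.0515). Since the genes were listed with these comparisons known, nothing is read from the counts.

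With stimulation in naive-derived cells 0 of 10 genes were called, beside 0.0135% of all genes by adjusted p (2 genes, both lower) and 8.46% at an unadjusted p below 0.05, a level that 2 of the 10 reached (Tbc1d10c and Btg1, both lower). The median difference was 0.02, beside 0.01 over all genes. Among stimulated cells 1 of 10 was called lower in naive-derived cells, Btg1, beside 2.01% of all genes. Txnip, at -0.82 (SE 0.284), lay lower on every naive-derived stimulated array than on any memory-derived stimulated array and did not pass.

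All 3 memory-derived unstimulated arrays lay above the 8 others in 4 of the 10 genes, beside 18.1% of all genes tested. Groups did not overlap with stimulation in naive-derived cells in 1 gene that lay higher (Foxo3), beside 13.6% of all genes, and in 2 that lay lower (Txnip and Tbc1d10c), beside 12.8%. With stimulation in memory-derived cells, 4 genes lay lower with no overlap, beside 24.7%. Among unstimulated cells 6 genes lay lower in naive-derived cells with no overlap, beside 29% (the 4 genes above, Pik3ip1 and Tob1).

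The difference between the responses of naive-derived and memory-derived cells was tested as an interaction. It was called higher for 4 of the 10 genes, Tbc1d10c (2.54, SE 0.401), Ypel3 (2.39, SE 0.495), Txnip (2.33, SE 0.426) and Btg2 (1.48, SE 0.332), beside 1.62% of all genes, and lower for 0, beside 1.09% (2.71% in either direction). A positive value means that stimulated minus unstimulated was less negative, or more positive, in naive-derived than in memory-derived cells. With the experiment as a block none of the 4 passed, with limma adjusted p of 0.0621, 0.0866, 0.0725 and 0.0649, while the values were 2.48, 2.30, 2.34 and 1.34. Of all genes, 26 were then called, against 401 without the block. With origin and experiment together as a random block instead, 532 genes were called higher and 359 lower (6.02% in all), and all 4 passed. For Btg1 the interaction was -1.03 (SE 0.338) and for Pik3ip1 0.86 (SE 0.454), and neither passed. The interaction uses the arrays labelled naive-derived unstimulated, which carried high Il2.

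Within the memory-derived unstimulated group, most of the 10 genes were highest on the same array. Replicate 3 was the highest of the 3 arrays in 9 of 10 genes, all but Btg1, beside 39.1% of all genes tested. The order replicate 3, 1, 2 held in 8 of 10, beside 24%. It was also the order of these arrays on the main axis of variation over all genes tested. That axis, the first principal component, held 56.5% of the variance. Replicates 3, 1 and 2 lay at 77.4, 50.4 and 40.3 on it, so the order was not particular to the 10 genes. Without replicate 3 the difference with stimulation in memory-derived cells was -2.38 for Txnip, -3.01 for Tbc1d10c, -1.69 for Ypel3 and -1.09 for Btg2, and all 4 still passed. Replicate 3 also had the lowest of the 11 weights (0.322) when arrays were weighted by their spread.

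**Figure D3:**
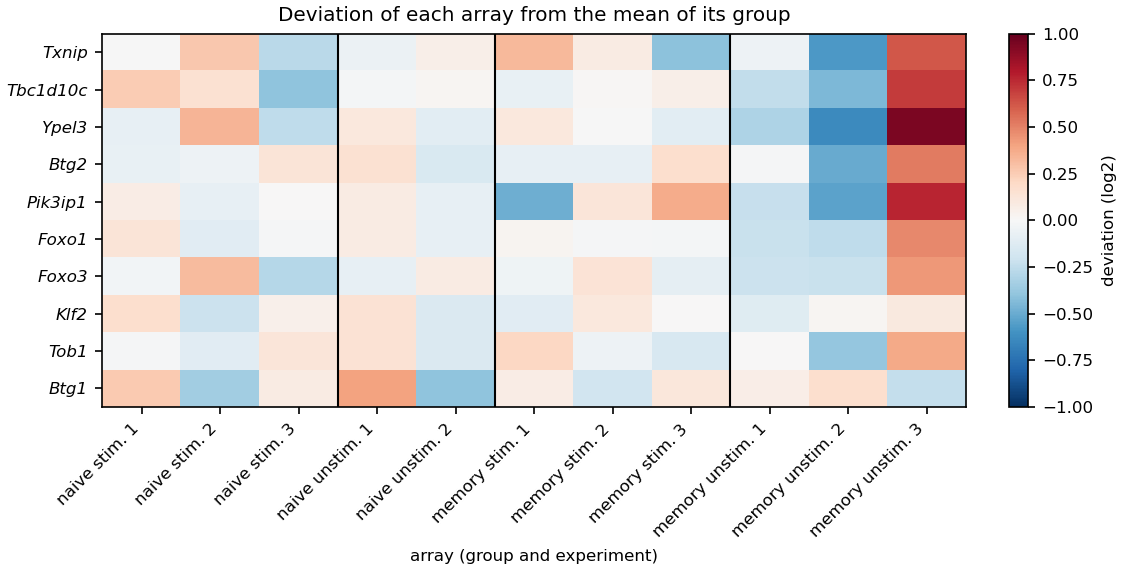
Deviation of each array from its group mean (log2, colour) for the 10 genes (rows) on the 11 arrays (columns). Replicate 3 of the memory-derived unstimulated group is above its group mean in 9 of 10 genes, and Btg1 is the exception.

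Over the 11 arrays, the 6 pairs among Txnip, Tbc1d10c, Ypel3 and Btg2 had Pearson r of 0.926 to 0.971. The deviations from the group means of the same pairs had r of 0.522 to 0.889. These are descriptions over arrays that share groups and experiments, and much of each r comes from the memory-derived unstimulated group. Foxo3 and Btg1 ran opposite to each other, at r = -0.705. For Foxo1 the other tested probe sets followed the main one at r = 0.905 and 0.879, and for Foxo3 at 0.657. A further Foxo1 probe set lay below the filter level on 10 arrays and a further Foxo3 one on all 11, so neither was tested.

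The genes whose levels ran most like Txnip over the 11 arrays, outside the list, were Mppe1, a metallophosphoesterase (r = 0.996), Cdc42se2, a binding partner of the GTPase Cdc42 (r = 0.995), and Limk2, a kinase of the actin regulator cofilin (r = 0.993). Their differences with stimulation in memory-derived cells were -1.61, -1.36 and -0.66, smaller than that of Txnip. Klf2 was most like Srpk3 (r = 0.902), Lama2 (r = 0.888) and Gtf3c1 (r = 0.876), and Foxo1 most like Anapc1 (r = 0.877), Als2cl (r = 0.859) and Fbxo45 (r = 0.841). The likeness was weaker for these flat genes, and it rests on variation within groups.

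Genes that act with the 10 were described through 8 lists made from their known roles, with 135 of 147 distinct genes tested. The lists too were chosen with earlier results of these data known, so their counts are a description and support nothing. Some genes stand on more than 1 list. In memory-derived cells 30 of the 135 rose with stimulation and 48 fell, 57.8% in all, beside 31.6% of all genes (14.3% higher and 17.3% lower, with a median of 0.00). In naive-derived cells 0 passed in either direction. Among stimulated cells of different origin 3 were higher in naive-derived cells and 1 lower (2.96%, beside 3.7% of all genes), and among unstimulated cells 25 were higher and 40 lower (48.1%, beside 25.8%).

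Of 22 FOXO target genes tested, 12 fell and 4 rose with stimulation in memory-derived cells, beside 17.3% of all genes lower and 14.3% higher, with a median of -0.74 beside 0.00. Cdkn1b, the cell cycle inhibitor p27, had 2.15, 1.95 and 1.82 on memory-derived stimulated arrays, against 4.10, 3.21 and 5.26 on memory-derived unstimulated arrays. It fell by 2.22 (SE 0.387) on the log2 scale, and the lowest unstimulated array was still over 1 unit above the highest stimulated one. S1pr1, the receptor for exit from lymph nodes, fell by 1.83 (SE 0.388), and Ccng2, an atypical cyclin of non-dividing cells, fell by 1.67 (SE 0.434). Sesn2, a stress-responsive inhibitor of mTORC1, went the other way and rose by 1.81 (SE 0.255), while its relative Sesn3 fell by 1.66. Foxo1 and Foxo3 mRNA stayed within their spread on the same arrays.

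Of 23 genes of PI3K, AKT and mTORC1 signalling, 7 fell and 5 rose, beside the same 17.3% and 14.3% of all genes, with a median of -0.16. The 5 that rose became 2 with scaling to the hybridization controls and 2 without replicate 2 of the memory-derived stimulated group. Of all genes, 1362 and 1529 were called higher in these runs, in place of 2119. The falls took in both lymphocyte catalytic subunits, Pik3cd (-1.96, SE 0.161) and Pik3cg (-1.73, SE 0.242), and also Inpp5d, the phosphatase SHIP1 that degrades their product (-2.05, SE 0.2). Eif4ebp1, an inhibitor of translation that mTORC1 inactivates, rose by 2.17 (SE 0.126). It had 7.64, 7.83 and 7.77 on memory-derived stimulated arrays, against 5.58, 5.51 and 5.65 on memory-derived unstimulated arrays, with little spread in either group.

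Of 17 genes of Ras, calcineurin and TBC1D10 relatives, 10 fell and 2 rose, beside 17.3% and 14.3% of all genes, with a median of -0.59. The 2 that rose became 1 without replicate 2 or 3 of the memory-derived stimulated group or replicate 3 of the memory-derived unstimulated group. Of all genes, 1529, 1713 and 1646 were called higher in these runs, in place of 2119. Rasal3, a Ras GTPase-activating protein of T cells, had 4.08, 4.10 and 4.09 on memory-derived stimulated arrays, against 6.35, 6.45 and 7.24 on memory-derived unstimulated arrays. It fell by 2.59 (SE 0.207), and the groups were far apart. Rasa3, another Ras GTPase-activating protein, fell by 1.98 (SE 0.238). Rasgrp1, which activates Ras below the T cell receptor, fell by 1.69 (SE 0.128), and Ppp3ca, the catalytic subunit of calcineurin that TBC1D10C inhibits, fell by 1.20 (SE 0.167). Of the Tbc1d10c relatives, Tbc1d10b fell by 0.60 and Tbc1d10a rose by 0.57.

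Of 22 other genes tied to lymphocyte rest, 11 fell and 3 rose, beside 17.3% and 14.3% of all genes, with a median of -0.55. The falls included the cell cycle inhibitors Cdkn2d (-2.30, SE 0.286) and Cdkn2c (-1.94, SE 0.271), and Dgka, a lipid kinase that ends diacylglycerol signalling (-1.89, SE 0.241). Slfn2, a Schlafen family gene that T cell rest requires in mice, rose by 1.58 (SE 0.139), as one of the 3 that rose.

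**Figure D4:**
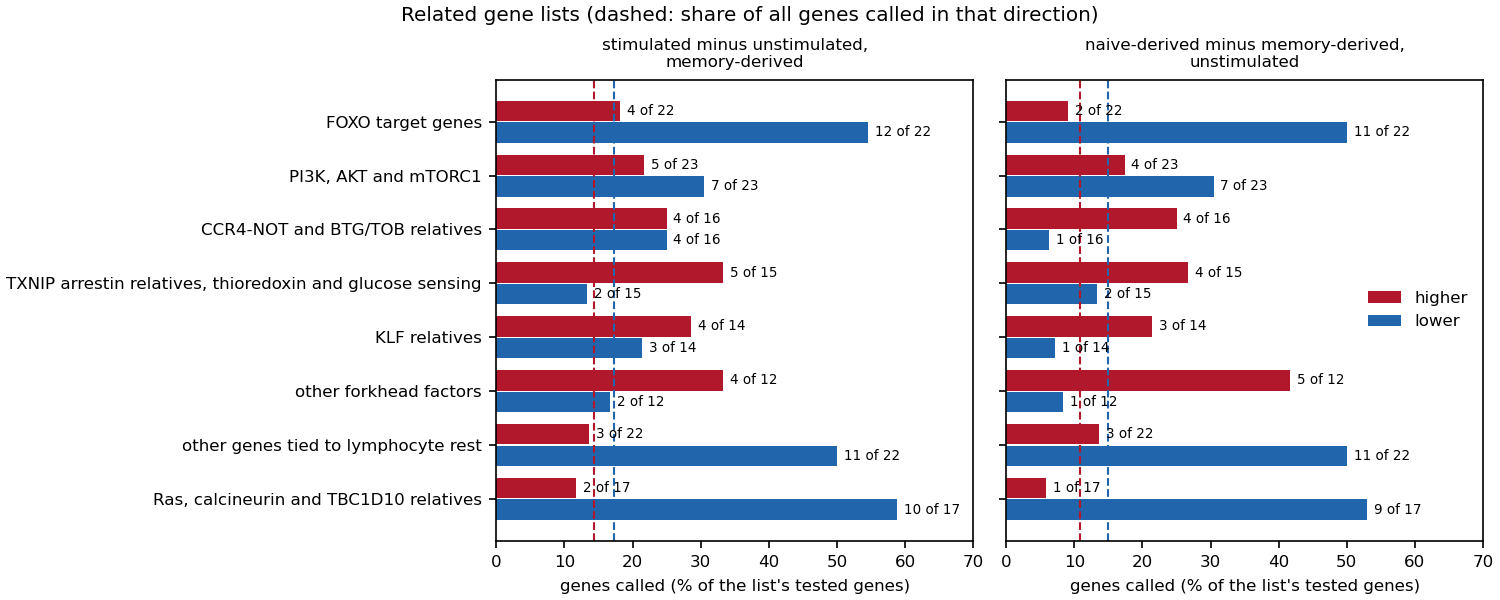
Share of the tested genes of each of the 8 lists called higher (upper bar) or lower (lower bar) in memory-derived stimulated minus unstimulated cells and in unstimulated naive-derived minus memory-derived cells, with counts beside the bars and dashed lines at the share of all genes called in that direction. FOXO targets, other rest genes and Ras and calcineurin genes have 12 of 22, 11 of 22 and 10 of 17 called lower on the left.

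Genes of the other 4 lists rose and fell, beside 14.3% of all genes higher and 17.3% lower. Of 16 CCR4-NOT genes and BTG/TOB relatives, 4 rose and 4 fell in memory-derived cells. The 4 that fell became 2 without replicate 1 or 2 of the memory-derived stimulated group or replicate 3 of the memory-derived unstimulated group. Of all genes, 2033, 1931 and 1938 were called lower in these runs, in place of 2556. The 4 that rose numbered 1 to 6 over all alternatives, beside 1271 to 2625 of all genes. The deadenylases Cnot6l (-0.83, SE 0.166) and Cnot6 (-0.80, SE 0.155) and the deadenylase subunit Pan2 (-0.68, SE 0.197) fell, and Pabpc4, a poly(A)-binding protein, rose (0.63, SE 0.153). Tob2, the relative of Tob1, was higher in unstimulated naive-derived than memory-derived cells (0.60, SE 0.168).

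Of 15 genes of the arrestin relatives of TXNIP, the thioredoxin system and glucose sensing, 5 rose and 2 fell. Arrdc3, an arrestin-like relative, fell with Txnip (-1.10, SE 0.245). Hk2, a hexokinase of growing cells, had 7.75, 7.69 and 7.83 on memory-derived stimulated arrays, against 5.25, 6.33 and 4.02 on memory-derived unstimulated arrays. It rose by 2.56 (SE 0.429), and replicate 3, highest for Txnip in its group, was lowest for Hk2. Hk1, the constitutive hexokinase, fell by 0.93 (SE 0.213), and Txnrd3, a thioredoxin reductase, rose by 1.19 (SE 0.161). Txnip's binding partner Txn1 differed by -0.09 and did not pass.

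Of 14 KLF relatives, 4 rose and 3 fell, beside 14.3% of all genes higher and 17.3% lower. The 4 that rose became 2 without replicate 1 of the memory-derived stimulated group or replicate 3 of the memory-derived unstimulated group. Of all genes, 1605 and 1646 were called higher in these runs, in place of 2119. Klf9 (1.68, SE 0.192), Klf16 (1.05, SE 0.272) and Klf3 (0.79, SE 0.22) rose and Klf7 fell (-0.73, SE 0.169). Klf2 itself stayed within its spread, at its low level. Of 12 other forkhead genes, 4 rose and 2 fell. Foxp1, which restrains activation of naive T cells, rose by 0.99 (SE 0.118), as did Foxj3 (0.87, SE 0.147) and Foxk2 (0.70, SE 0.158), and Foxn3 fell by 0.82 (SE 0.207).

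In unstimulated cells, naive-derived arrays differed from memory-derived ones in the same lists, with 11 of 22 FOXO targets lower and 2 higher, 11 of 22 other rest genes lower and 3 higher, and 9 of 17 Ras and calcineurin genes lower and 1 higher, beside 14.9% of all genes lower and 10.9% higher. Without replicate 1 or 2 of the naive-derived unstimulated group, 1 array is left there. Fewer FOXO targets and other rest genes were then called lower, as were fewer of all genes. The single Ras list gene that was higher was no longer called. Sesn3, another sestrin, was lower (-2.35, SE 0.197), and Ddit4, an inhibitor of mTORC1, was lower too (-1.91, SE 0.214). Ctla4, an inhibitory receptor and FOXO target, ran opposite to its list, at 3.09 (SE 0.432). It was also higher in naive-derived than in memory-derived cells under stimulation (2.67, SE 0.387). Foxp4 was higher in unstimulated naive-derived cells (1.96, SE 0.287), and so was Foxp1 (1.10, SE 0.132).

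Among stimulated cells of different origin, the genes that passed beside Ctla4 were Sesn3 (-0.89, SE 0.177), Foxp1 (0.51, SE 0.118) and Slfn2 (0.61, SE 0.139). No other list gene of the 135 tested passed there, and Txnip, Tbc1d10c, Ypel3 and Btg2 did not pass either.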

How the data were processed

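Total RNA of 11 samples was hybridised to Affymetrix 3' expression arrays. Per the submitters' processing notes, Affymetrix Expression Console was used. The deposited values run from 0 to 4.56 with a median of 0.554, and the sorted values of all 11 arrays are identical. Between neighbouring concentrations, up to 100 pM, the hybridization controls rise by 0.944 to 1.77 per log10 unit of concentration. The deposited unit was therefore taken as log10 of a quantile-normalized signal. The log base is inferred, and the summary method is not given in the sources used here. Values were multiplied by 3.32 to give log2.

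The platform annotation gave a single gene symbol for 34945 of 45101 probe sets and more than 1 for 932, while 9160 have no entry there and are unnamed here. A gene was read from its probe set with the highest mean. Genes above the 40th percentile of an array (log2 level 1.54) on at least 2 arrays were tested, 14795 of 18193. A limma fit (version 3.58.1, R 4.3.3) gave a mean to each of the 4 groups over all 11 arrays (7 residual and 3.86 prior degrees of freedom), with p-values adjusted over all genes tested (Benjamini-Hochberg, 0.05, two-sided). Probe sets were fitted separately over 27046. The number of arrays limits the precision. The naive-derived unstimulated group has 2 arrays here. The fit was tested on simulated data.

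Replicate numbers mark independent experiments in the labels, so they pair the samples. Deviations from group means correlated at -0.0716 to 0.112 within experiments (15 pairs of arrays) and -0.131 to 0.112 between them (30 pairs). The 5 pairs that shared both experiment and origin were all positive, at 0.047 to 0.112 with a median of 0.0944. The block is given beside a result where it changes a call.

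The 10 genes, the 8 pathway lists, the marker lists and the tests were chosen with earlier results of these data known. Named were all 10 genes, the list genes with the largest differences that passed (up to 4 in the memory-derived comparison and 2 in each other), and the 3 genes most correlated with Txnip, Klf2 and Foxo1. Other genes named from the lists (Sesn3 and Slfn2 in memory-derived cells, Tbc1d10a, Tbc1d10b, Txn1, and Rras and Rasa1 for the interaction) were chosen after their values were seen. Promoters came from RefSeq (GRCm38.p6). Figures were drawn with matplotlib 3.10.9 in Python 3.11.15.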

Additional observations from a re-analysis of the deposited data

Results flagged for a closer look

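The response to stimulation differed between naive-derived and memory-derived cells in 4 of the 10 genes, by the interaction term of the limma fit (naive-derived minus memory-derived response, log2). All 4 were called higher, beside 1.62% of all genes, and 0 lower, beside 1.09%. In the pathway lists the interaction was called higher for 11 genes and lower for 4 of the 135 tested (11.1%, beside 2.71% of all genes in either direction). It rests on the arrays labelled naive-derived unstimulated, which carried Il2 at the height of memory-derived stimulated cells, and whether their label holds was not tested. Among the 10 genes the values were Tbc1d10c at 2.54, Ypel3 at 2.39, Txnip at 2.33 and Btg2 at 1.48. Among Ras regulators they were Rasa3 at 2.01, Rasal3 at 1.96, Rras at 1.29, Rasa1 at 1.07 and Rasgrp1 at 0.96 (Rras and Rasa1 were named after their values were seen). Among cell cycle inhibitors and lipid signalling genes they were Cdkn2c at 1.87, Dgka at 1.69, Inpp5d at 1.29 and Pik3cd at 1.15. The mTORC1 inhibitors Sesn3 and Ddit4 had 1.47 and 1.42. Lower values, with a stimulated minus unstimulated difference that was less positive in naive-derived than in memory-derived cells, were those of Eif4ebp1 at -1.33, Klf9 at -1.23, Slfn2 at -0.998 and Txnrd1 at -0.88. The limma adjusted p ran from 0.017 for Eif4ebp1 to 0.0497 for Inpp5d and Klf9, close to the threshold of 0.05. With the experiment as a block, 26 of 14795 genes were called for the interaction in place of 401, and none of the 4 genes passed (limma adjusted p 0.0621 to 0.0866). With origin and experiment together as a random block, 532 genes were called higher and 359 lower, and all 4 genes passed. No group had more than 3 arrays, so single arrays far from their group were not tested for.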

How the results depend on the processing

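Results were recomputed under 21 alternatives, of which 11 left out 1 array each. No direction of a result that had passed was reversed. Txnip, Tbc1d10c, Ypel3 and Btg2 were called lower with stimulation in memory-derived cells, and lower in unstimulated naive-derived than memory-derived cells, under all 21. The interaction, called for 4 of the 10 genes, was called for 2 with no filter on low values, 0 with the replicate block, 2 with experiments 1 and 2 only, and 0 to 4 with 1 array left out. It was 0 without replicate 1 or 2 of the naive-derived stimulated group, either naive-derived unstimulated array, or replicate 2 or 3 of the memory-derived stimulated group. It was 2 without replicate 3 of the naive-derived stimulated group, replicate 1 of the memory-derived stimulated group or replicate 1 of the memory-derived unstimulated group. The single call in stimulated cells was Btg1, beside 3.7% of all genes. It became 0 with the mean of all probe sets (3.64% of all genes) and with experiments 1 and 2 only (1.86%). With 1 array left out it was 0 to 1 (1.96% to 4.81%). The call of Pik3ip1 in unstimulated cells was lost with no filter, with the replicate block, with the groups compared alone, with experiments 1 and 2 only and in 8 of the 11 runs that left out an array. Beside these calls, the replicate block changed that of Pik3ip1 in memory-derived cells and no other call of the 10 genes. The cause was not tested. In memory-derived cells, the FOXO targets called lower numbered 9 to 12 over the alternatives, the other rest genes 9 to 12 and the Ras and calcineurin genes 7 to 10. The share of all genes called there, in either direction, ran from 19.7% (experiments 1 and 2 only) to 48.4% (stricter filter on low values). With experiments 1 and 2 only, the CCR4-NOT genes called were 1 higher and 2 lower, the KLF relatives 2 higher and the forkhead genes 2 higher. Under scaling to the hybridization controls the median of all genes in the comparison of stimulated cells was -0.117, in place of -0.0127, and Btg2 lost its interaction call (1.44, limma adjusted p = 0.0517). Leaving out a naive-derived unstimulated array leaves 1 array there, whose spread is assumed to be like that of the other groups. The interaction could not be run on the groups compared alone, since it needs all 4.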
